A study of Mus musculus with 20 samples.

Results

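The 10 genes Snrpn, Ube3a, Ndn, Magel2, Peg10, Sgce, Mest, Nnat, Gnas and Plagl1 are imprinted genes of the mouse, most of them expressed from the paternal chromosome. Their accessible chromatin was followed across 10 Ctcf genotypes. The genes were chosen by name, and every ATAC peak overlapping a gene body or the 20 kb on either side of it was taken. Merging these peaks over the 10 genotypes, wherever at least 1 bp overlapped, gave 84 regions of 222457 in the genome. The windows of Peg10 and Sgce overlap and share 7 of these regions, and the windows of Ndn and Magel2 overlap without sharing any.

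The data are Omni-ATAC-seq of E14Tg2a mouse embryonic stem cells (strain 129/Ola), an assay in which a transposase cuts accessible DNA and tags it for sequencing. In all groups the cells carry an auxin-inducible degron on their own CTCF and received 500 μM indole-3-acetic acid (IAA) and 1 μg/ml doxycycline for 2 days, which removes endogenous CTCF and switches on a Ctcf transgene. The transgene is wild type (WT) or carries R339Q, R342C, S354F, K365T, R377C, R377H, Q418R, R448Q or H455R, with 2 replicates per genotype and 20 samples in all. The 2 replicates of a genotype entered 1 deposited peak list, which leaves no replicate spread to test a difference between genotypes against. The WT group is also a transgene line without endogenous CTCF, and the number of clones behind each line and whether the replicates came from separate cultures were not given in the sources used here. Differences between lists are therefore given as values, and intervals cover counting error over peaks only.

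In an imprinted gene, 1 parental copy is silenced by marks set in the germ line, most often DNA methylation at a control region close to a promoter. CTCF, a DNA-binding protein with a row of zinc fingers, halts cohesin on the chromatin fibre. It binds several imprinted control regions on the unmethylated copy only, while ZFP57 binds the methylated copy and helps to keep it methylated. Ube3a is an exception in this set: it is expressed from both copies in most cells and from the maternal copy in neurons. Gnas is a complex locus with promoters used by the maternal copy, by the paternal copy or by both. The peak lists do not separate the parental copies.

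The promoter windows below show the starts on which the results turn: each runs from 250 bases before to 50 bases after an annotated start, 5′ to 3′ on the gene's strand, from the RefSeq table of GRCm38.p6, which has the chromosomes of mm10. Capitals mark 2 motifs searched on both strands, TGCCGC (the hexamer bound by ZFP57 when methylated) and CGCATGCG (the centre of the NRF1 consensus, which reads the same on both strands). No match of 1 motif overlapped a match of the other in the windows printed. The table held 16 windows for 8 of the genes. The set below holds the main and the most upstream Snrpn start, which differ in TGCCGC and share CGCATGCG, then Ndn, Ube3a, the inner Mest start and Plagl1, which had a peak in every list. Positions are chr7:60005150-60005449 and chr7:60450128-60450427 (both minus strand) for Snrpn, chr7:62348027-62348326 for Ndn, chr7:59228500-59228799 for Ube3a, chr6:30737800-30738099 for Mest and chr10:13090582-13090881 for Plagl1.
Snrpn main start: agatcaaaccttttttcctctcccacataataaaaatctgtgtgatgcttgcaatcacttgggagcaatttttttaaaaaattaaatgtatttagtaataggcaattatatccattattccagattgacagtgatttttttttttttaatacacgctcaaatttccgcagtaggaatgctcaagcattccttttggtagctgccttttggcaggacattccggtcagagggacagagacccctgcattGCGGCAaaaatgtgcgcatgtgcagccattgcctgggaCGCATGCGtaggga
Snrpn most upstream start: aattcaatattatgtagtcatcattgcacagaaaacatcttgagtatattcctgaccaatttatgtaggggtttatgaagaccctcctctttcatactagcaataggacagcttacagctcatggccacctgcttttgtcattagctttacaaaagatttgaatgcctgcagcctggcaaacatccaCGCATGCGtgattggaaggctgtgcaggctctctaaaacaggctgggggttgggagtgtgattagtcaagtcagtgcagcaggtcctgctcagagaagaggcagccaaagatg
Ndn start: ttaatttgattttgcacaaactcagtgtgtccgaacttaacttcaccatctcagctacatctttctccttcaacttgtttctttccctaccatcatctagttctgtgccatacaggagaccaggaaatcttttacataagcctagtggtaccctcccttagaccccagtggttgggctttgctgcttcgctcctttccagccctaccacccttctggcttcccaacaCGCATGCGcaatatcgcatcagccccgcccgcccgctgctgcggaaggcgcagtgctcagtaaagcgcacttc
Ube3a start: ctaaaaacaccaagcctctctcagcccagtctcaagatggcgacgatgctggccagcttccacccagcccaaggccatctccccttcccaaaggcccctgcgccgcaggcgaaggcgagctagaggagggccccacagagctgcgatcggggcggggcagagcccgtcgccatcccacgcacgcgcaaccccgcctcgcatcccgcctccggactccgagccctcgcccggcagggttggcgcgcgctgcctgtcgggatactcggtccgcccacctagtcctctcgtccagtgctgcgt
Mest inner start: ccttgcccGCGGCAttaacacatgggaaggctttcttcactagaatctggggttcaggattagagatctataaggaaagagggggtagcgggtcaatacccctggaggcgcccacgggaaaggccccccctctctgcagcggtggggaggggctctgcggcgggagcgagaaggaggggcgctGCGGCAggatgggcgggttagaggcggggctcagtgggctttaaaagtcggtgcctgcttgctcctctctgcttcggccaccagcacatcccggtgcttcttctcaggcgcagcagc
Plagl1 start: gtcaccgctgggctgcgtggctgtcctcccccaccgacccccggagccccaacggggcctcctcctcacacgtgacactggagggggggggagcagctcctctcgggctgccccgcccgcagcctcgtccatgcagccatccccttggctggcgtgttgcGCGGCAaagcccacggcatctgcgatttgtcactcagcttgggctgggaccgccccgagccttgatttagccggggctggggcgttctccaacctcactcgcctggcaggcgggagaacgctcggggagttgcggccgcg

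TGCCGC or its reverse complement occurred in 5 of the 16 windows, those of the main Snrpn start, both inner Mest starts, Nnat and Plagl1, against 11.6% of all 32851 windows in the table. CGCATGCG occurred in 6 of 16, at the 4 Snrpn starts, Ndn and Nnat, against 1.87% of all windows. The 3 upstream Snrpn windows resemble each other closely and are not independent matches, and the inner Mest windows overlap. Peaks of all 10 lists covered 10 of the 16 windows, and 5 had none in any list; over the table these shares were 44.5% and 44.6%. The dinucleotide CpG, the target of DNA methylation, numbered 29 at Ube3a, 26 at Plagl1, 17 at the inner Mest start and 11 at Ndn, against 7 at the main and 2 at the most upstream Snrpn start. Over the table the median was 21 CpG in windows with a peak in all lists and 3 in windows with none. The Nnat window (17 CpG) and that of the first Gnas start (16 CpG) had no peak in any list. Conversely, the windows of the outer Mest start (8 CpG) and Magel2 (10 CpG), not printed above, had a peak in every list.

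The whole lists differed in length from 121032 peaks (R339Q) to 171719 (WT). The background coverage that the values imply, a measure of relative depth, ran from 3.49 in K365T to 5.96 in WT with R448Q next at 5.45. Each peak carries a value that matches the fold enrichment of MACS2, the coverage at the peak over that expected from background. This value is the authors' and serves here to describe peaks and to rank them within a list. Folds of different lists may not be on 1 scale: the median fold ran from 4.69 in WT to 5.13 in K365T. Where folds of different lists are set side by side below, they are descriptions, and the order by rank can differ. As a check of the cell type, 10 of 10 naive pluripotency markers had a peak within 1 kb of a gene end in every list. So did 4 of 7 fibroblast, 4 of 5 neural and 3 of 5 primitive endoderm markers and 64.7% of all protein-coding genes, so such a peak does not tell cell types apart.

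Each of the 10 genes had at least 1 region that was present in all genotypes. The share of all gene windows with such a region is not given here. Within 1 kb of a gene end alone, 64.7% of all protein-coding genes had a peak in every list. Of the 84 regions, 37 (44.0%) were present in all 10 lists, against 36.5% of all merged regions. Another 37 were in 2 to 9 lists, and 10 (11.9%) were in 1 list only, against 18.2% in the genome. Regions found everywhere had a median width of 993 bp and those in 1 list 231.5 bp. No region was in all 9 mutants and absent from WT, and 3 were in WT alone, 1 each in the Mest, Nnat and Gnas windows. The map of all regions shows the shared regions as unbroken columns in every window.

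**Figure D1:**
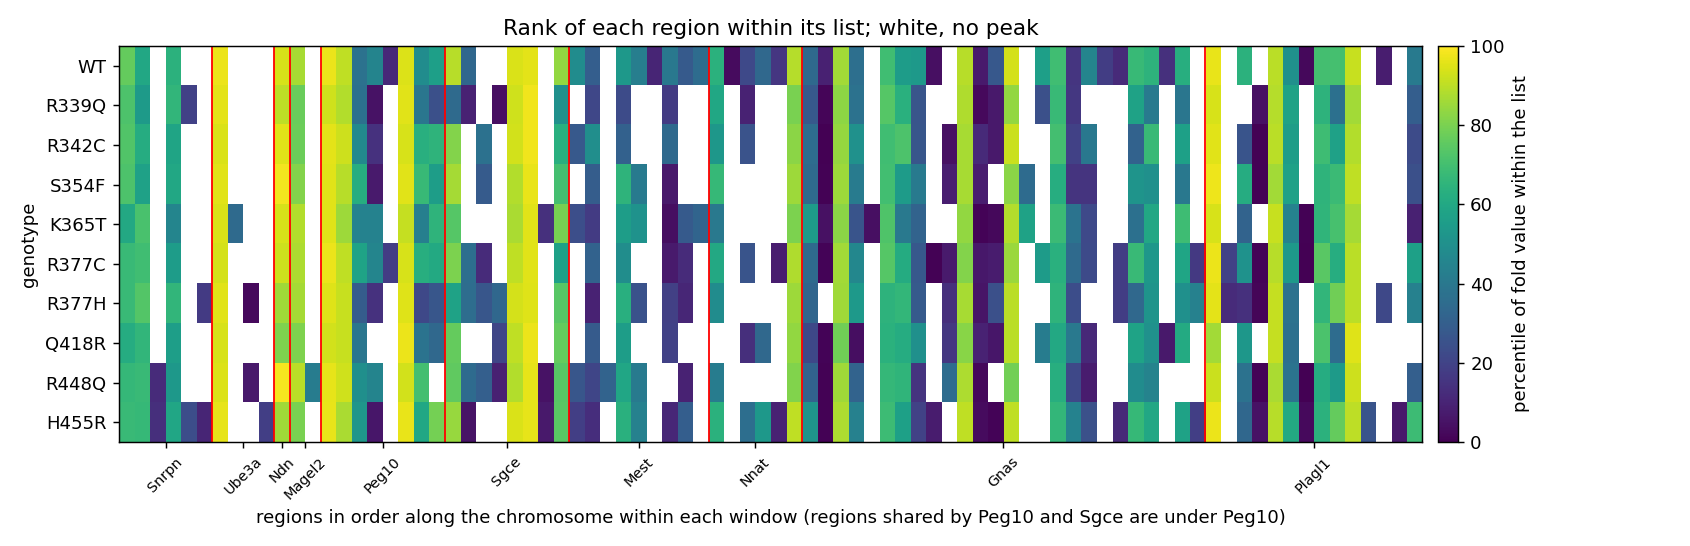
Rank of the fold value of each of the 84 regions within its own list (colour, percentile from 0 to 100) in the 10 genotypes (rows), ordered along each gene window (columns, separated by red lines), with white where a list had no peak. The 37 regions in all 10 lists form unbroken columns and include the columns of highest rank at Ube3a, Ndn, Magel2, Peg10, Sgce and Plagl1, while most Mest and Nnat regions are broken by white.

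Of the 73 WT peaks in the windows, each mutant list lacked between 9 and 21. H455R lacked 9 (12.3%, exact 95% binomial interval 5.8 to 22.1; 19.3% of all WT peaks) and R377C lacked 11 (15.1%, 7.77 to 25.4; 20.9% of all). K365T lacked 16 (21.9%; 28.3% of all), R377H 18 (24.7%; 26% of all), R342C 19 (26.0%; 26.1% of all) and R448Q 19 (26.0%; 27.7% of all). R339Q and Q418R lacked 20 each (27.4%), where 35.1% and 30.8% of all WT peaks were missing. The S354F list lacked 21 (28.8%, 18.8 to 40.6), where 24.3% of all WT peaks were missing, and was the only list with more missing than the number (18.1) expected from all WT peaks of equal strength. In every mutant the share over all WT peaks lay within the interval for the imprinted genes. Over the 9 mutants, 153 of 657 comparisons of a WT peak with a mutant list found none (23.3%), against 178 expected at equal strength. Among the stronger 50% of WT peaks, 10 of 324 comparisons found none (3.09%), where the share over all stronger WT peaks ran from 3.24% to 10.8% per mutant. The order of the mutants depended on list length: with every list limited to its 121032 strongest peaks, the share of WT peaks found was 84.6% in H455R, S354F, R377H, Q418R and R448Q, and 90.4% in K365T and R377C.

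**Figure D2:**
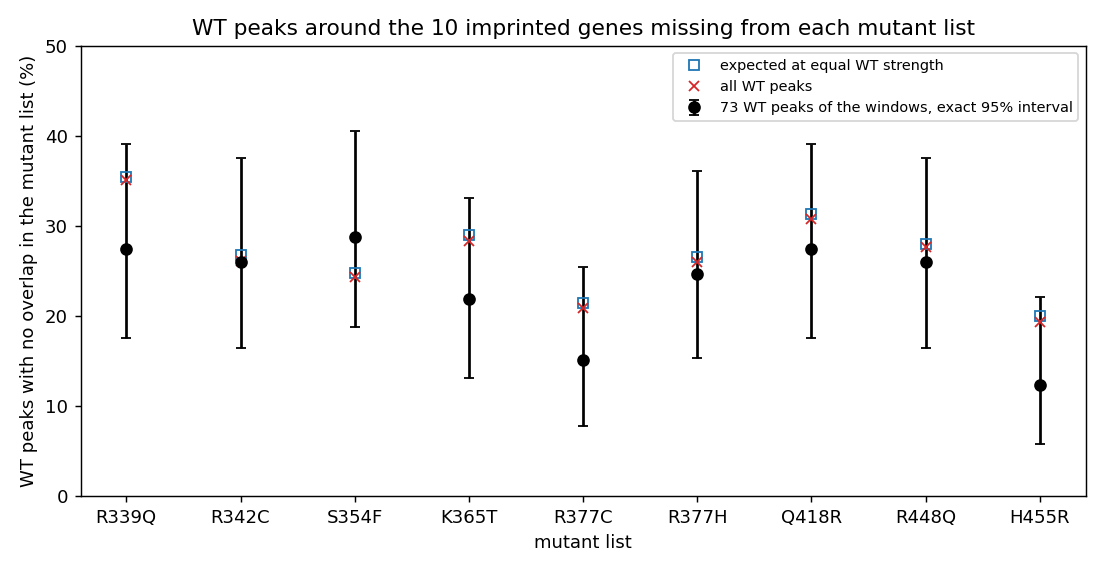
Share of WT peaks with no overlapping peak in each mutant list, in percent, for the 73 WT peaks in the windows of the 10 imprinted genes (black points with exact 95% binomial intervals), for all WT peaks (red crosses) and for the expectation from all WT peaks of equal strength (blue squares). The black points run from 12.3% in H455R to 28.8% in S354F, and each interval holds the value of all WT peaks.

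Peaks without a WT counterpart numbered 47 over the 9 mutants. R448Q had 9 of its 61 peaks (14.8% of its whole list had no WT overlap), H455R 9 of 71 (13.1% of the whole list) and R377H 8 of 60 (12.1%). R377C had 5 of 62 (10.8% of the whole list), K365T 4 of 64 (8.94%) and S354F 4 of 54 (8.82%). R342C had 3 of 56 (9.77%), R339Q 3 of 54 (7.14%) and Q418R 2 of 54 (7.97%). R448Q, H455R and R377H, which have the highest shares over the whole lists, had the most here too, but not at equal list length. There R339Q had 9, K365T and R377H 7 each, R448Q and Q418R 6 each, H455R and R342C 4 each, S354F 3 and R377C 2. With whole lists, Sgce and Gnas held 12 of the 47 gained peaks each and Plagl1 11, while Ndn, Peg10 and Nnat held none. These counts do not rank the genes, because their windows differ in peaks. Each mutant list had 19 to 25 peaks at Gnas, 10 to 14 at Sgce and 7 to 12 at Plagl1. At Peg10 it had 6 to 8, at Nnat 2 to 5 and at Ndn 1 or 2.

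Strength was compared as the rank of a region among the 81151 regions present in all 10 lists, and a change of 20 percentile points or more against WT was called a shift. The 37 shared regions gave 30 shifts in 333 comparisons (9.01%, against 15.9% over the genome), in 13 regions. R339Q had 6 of 37 (19.8% of all shared regions shifted in that list), R342C 4 (15.5%), K365T 4 (14.7%), R377H 4 (17.9%) and R448Q 4 (23.1%). S354F had 3 (12.9%), Q418R 3 (14.7%) and R377C 2 (12.4%). H455R had none, where 12.3% of all shared regions shifted. Ranked over its whole list H455R had 2, and at a threshold of 10 points H455R and R448Q had 13 each and R339Q 12. Each of the 13 regions with a shift was also set against shared regions of similar WT rank. The share of these with a range of ranks over the 10 lists at least as wide ran from 6.03% to 90.0%.

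Chromosome 7 holds the domain whose human counterpart is lost in Prader-Willi and Angelman syndromes. Snrpn encodes a protein of the splicing machinery, its upstream exons belong to long transcripts, and the control region of the domain lies at its main promoter. The gene is annotated at chr7:59982495-60450177 on the minus strand, and its 508 kb window held 3 to 6 peaks per list. WT peaks were therefore sparse, 0.788 per 100 kb of window against 26.4 in Gnas. All lay close to the main start at position 60005199, where Snhg14 overlaps Snrpn and, past the start, Snurf does too. None of the 3 upstream starts had a peak in any list.

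The 3 regions shared by all lists around the main Snrpn start flank it rather than cover it. The region 600 bp past the start (chr7:60003581-60004599) had a fold of 5.47 in WT, 5.10 in R339Q, 6.15 in R342C, 5.71 in S354F, 7.26 in K365T, 6.94 in R377C, 7.32 in R377H, 6.60 in Q418R, 6.92 in R448Q and 6.51 in H455R. Its rank spanned 26.2 points over the 10 lists, and 69.4% of shared regions of similar WT rank spanned at least as much, so such a range was common. The region's rank was lowest in WT (26.8) and was shifted upward in K365T (52.4), R377H (53.0), Q418R (47.8) and R448Q (46.9). Its neighbour 1823 bp past the start (chr7:60002819-60003376), the strongest of the window in WT, had its highest fold in WT: 7.66 there and 5.96 to 7.61 in the mutants, with ranks of 51.9 in WT, 37.6 in K365T and 58.7 in R339Q and no shift. In 5 mutants (K365T, R377C, R377H, Q418R and R448Q) the region nearer the start had the higher fold of the pair, unlike in WT. The region 927 bp upstream (chr7:60006126-60006687) ranged from 4.83 in K365T to 6.33 in R377H, with WT at 5.94.

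A narrow peak on the main Snrpn start itself (chr7:60005019-60005247), over the TGCCGC and CGCATGCG matches printed above, was called in 2 lists only, R448Q with a fold of 3.10 and H455R with 3.17. These ranked in the weakest 12.3% and 13.4% of their lists. Of 36 comparisons of a Snrpn WT peak with a mutant list, 2 found none, against 7.26 expected at equal strength. The share of all peaks that lay within 2.5 Mb of Snrpn differed from the median of the lists by -0.25 (log2) in R377C and 0.22 in Q418R. Whether this local share bears on the Snrpn ranks in those lists was not tested.

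Ube3a, a ubiquitin ligase gene overlapped in antisense by the long transcripts of Snhg14, had 1 WT peak, at its start (chr7:59228081-59229794). The fold was 16.2 in WT, 13.8 in R339Q, 14.2 in R342C, 15.3 in S354F, 13.8 in K365T, 13.5 in R377C, 14.8 in R377H, 13.6 in Q418R, 15.2 in R448Q and 15.4 in H455R. Its rank stayed between 88.1 in R377C and 94.0 in WT, and no list shifted. The 3 other Ube3a regions lay 24.7, 29.3 and 36.1 kb inside the gene, were 200 to 239 bp wide and were absent from WT: K365T had the first, R377H and R448Q the next, and H455R the last. Within 2.5 Mb of Ube3a the Q418R list held a larger share of its peaks than the median list (0.26, log2), and the fold of its Ube3a peak lay between those of R377C and R339Q.

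Ndn and Magel2 are neighbouring genes without introns of the same family, expressed in neurons from the paternal copy. Each had its WT peak at the start, and neither peak was missing from any list. The Ndn peak (chr7:62348060-62349265) had a fold of 13.5 in WT, 10.9 in R339Q, 15.1 in R342C, 18.1 in S354F, 13.5 in K365T, 12.9 in R377C, 10.1 in R377H, 9.0 in Q418R, 19.4 in R448Q and 10.2 in H455R. Its rank ran from 69.3 in Q418R to 97.5 in R448Q with WT at 87.2. Among peaks over a start, this spread of 28.2 points was exceeded by that of the inner Mest start (31.7). A spread at least as wide as that of Ndn was found in 23.8% of shared regions of similar WT rank. No list differed from WT by 20 points at Ndn.

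The Magel2 peak (chr7:62376596-62377625) had a fold of 10.3 in WT, 7.68 in R339Q, 8.44 in R342C, 9.41 in S354F, 11.1 in K365T, 11 in R377C, 10.3 in R377H, 9.0 in Q418R, 12.2 in R448Q and 8.65 in H455R. R448Q had the highest value of both genes. Elsewhere the neighbours parted: S354F had 18.1 at Ndn and 9.41 at Magel2, with ranks of 96.9 and 68.0. Ndn exceeded Magel2 in 8 lists, was level with it in Q418R and lay below it in R377H. The Ndn peak covered 1106 bp in both WT and R448Q, and between 930 bp in H455R, which called 2 peaks there, and 1185 bp in Q418R. Local peak shares around these genes stayed within 0.08 (log2) of the median.

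**Figure D3:**
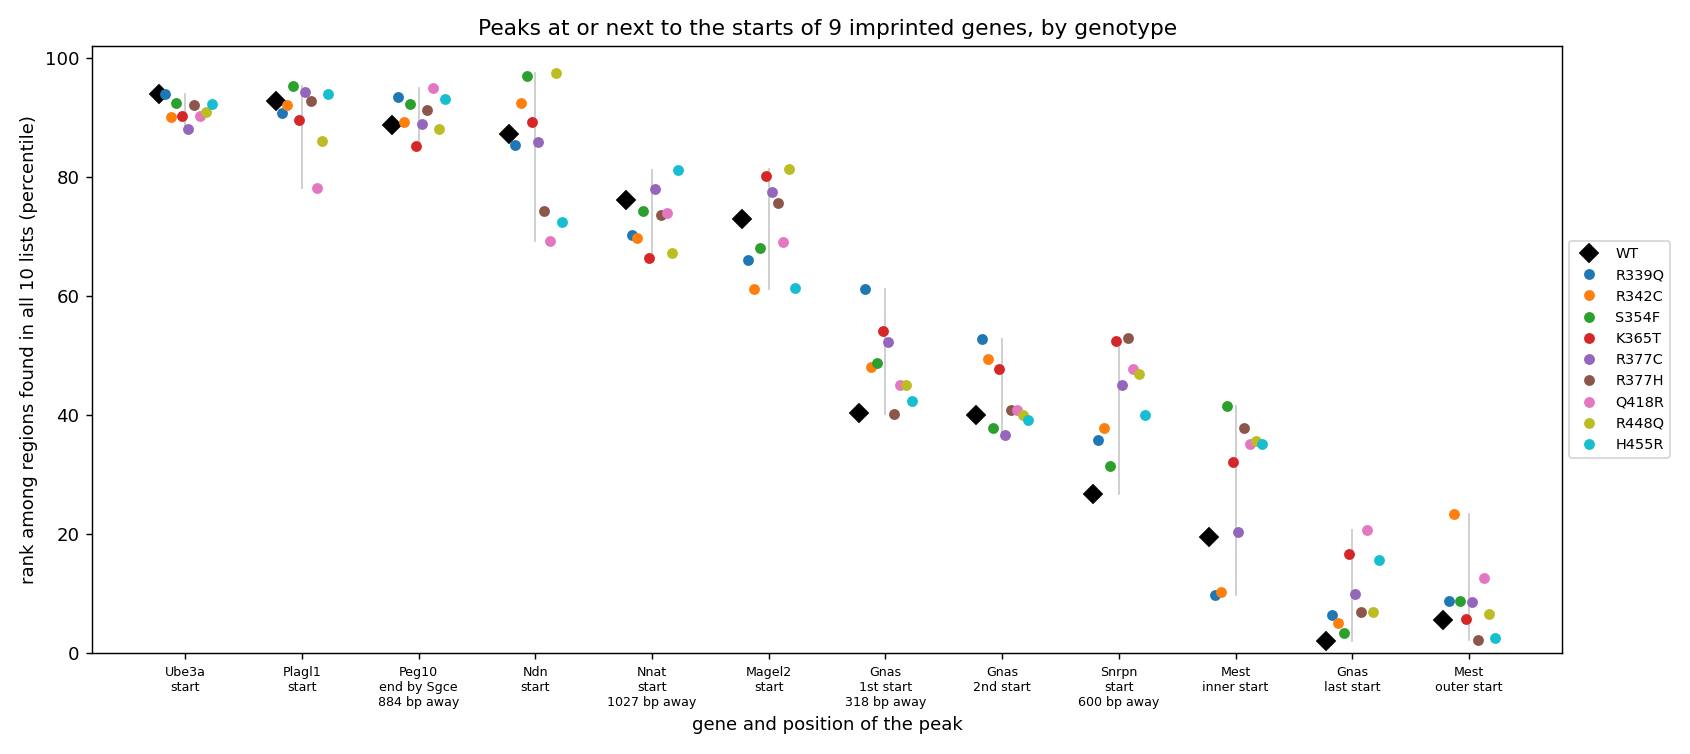
Percentile rank, among the regions present in all 10 lists, of the shared region at or nearest to 12 annotated starts or gene ends of 9 imprinted genes (x axis, with the distance where the region does not cover the position), for WT (black diamonds) and the 9 mutants (coloured points), with grey lines from lowest to highest. Ube3a stays between 88.1 and 94.0, Ndn spreads from 69.3 to 97.5, and at Snrpn WT is the lowest of the 10 lists at 26.8. Ranges at least as wide occur in 55.6% (Ube3a), 23.8% (Ndn) and 69.4% (Snrpn) of shared regions of similar WT rank.

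Peg10 and Sgce share a control region on proximal chromosome 6. Peg10 derives from a retrotransposon and is needed in the placenta, and Sgce encodes a sarcoglycan whose human counterpart is mutated in myoclonus dystonia. Their annotated bodies, chr6:4747306-4760517 and chr6:4674350-4747204, adjoin each other. The region over this gap (chr6:4747026-4747568) had a fold of 4.36 in WT, 2.78 in R339Q, 3.28 in R342C, 2.86 in S354F, 4.69 in K365T, 4.73 in R377C, 3.24 in R377H, 4.66 in R448Q and 2.79 in H455R, and had no peak in Q418R. The values lay either between 4.36 and 4.73 or between 2.78 and 3.28, and Q418R was the only list without a peak between the genes.

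Inside Peg10 a broader merged region (chr6:4748190-4749555), with its nearest edge 884 bp from that end, was strong in every list. Its fold ran from 12.3 in K365T to 15.8 in Q418R and H455R, with 14.0 in WT. Q418R thus shared the highest value here while lacking the weaker peak nearby. Sgce held further strongly accessible regions. One of them, 13.2 kb away (chr6:4732794-4733982), was the highest WT peak of both windows. It had 15.9 in WT and 12.0 (R339Q) to 16.2 (R448Q) in the mutants, with ranks of 89.1 to 94.3. Another, chr6:4684836-4685836, had 14.9 in WT and 14.5 (K365T and R377H) to 17.5 (R342C) in the mutants. By rank R339Q was the highest there (96.9), with R342C at 96.3 and WT at 91.4. Local peak shares at both genes stayed within 0.08 (log2) of the median.

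The largest change of rank in the set (60.1 points) was at the outer edge of the Sgce window. The region chr6:4658704-4659758, 14.6 kb beyond the far end of Sgce and inside the predicted gene Gm38761, had a fold of 11.2 in WT, 4.04 in R339Q, 9.30 in R342C, 10.8 in S354F, 7.61 in K365T, 8.88 in R377C, 5.52 in R377H, 8.17 in Q418R, 8.20 in R448Q and 9.82 in H455R. All mutants lay below WT. The rank was 77.5 in WT and 17.4 in R339Q, 31.4 in R377H and 56.1 in K365T, which are shifts, and at least 58.2 in the others. R377C, the other substitution of residue R377, was at 63.7. Only 6.03% of shared regions of similar WT rank had a range over the 10 lists at least as wide.

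Within Sgce, 34.8 kb from its near end, chr6:4711959-4712355 was also highest in WT (9.34) and shifted downward in R339Q (4.85), R377C (5.59) and R342C (6.27). Here the other values ran from 7.22 in S354F to 8.69 in K365T. By contrast chr6:4754359-4755485, in Peg10, had 4.60 in WT and shifted upward in R448Q (7.29), S354F (6.85) and R342C (6.27), while R377H was lower at 3.55. The small region chr6:4739809-4740238 in Sgce had 4.01 in WT and shifted upward in S354F (6.23) and R377C (5.69). R342C and R377C thus shifted in both directions within these windows.

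At the distal side of Peg10, chr6:4769681-4770165 was among the stronger 50% of WT peaks (5.17) and missing from R448Q alone. The other mutants spanned 3.64 in R339Q to 8.48 in H455R. On the Sgce side, chr6:4666031-4666594 was absent from WT and called in R342C (4.33), S354F (3.89), R377C (3.17), R377H (3.75) and R448Q (3.88). Over all mutants, 21 of 117 Sgce comparisons and 18 of 81 Peg10 comparisons found no peak, against 22.8 and 20.3 expected at equal strength.

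**Figure D4:**
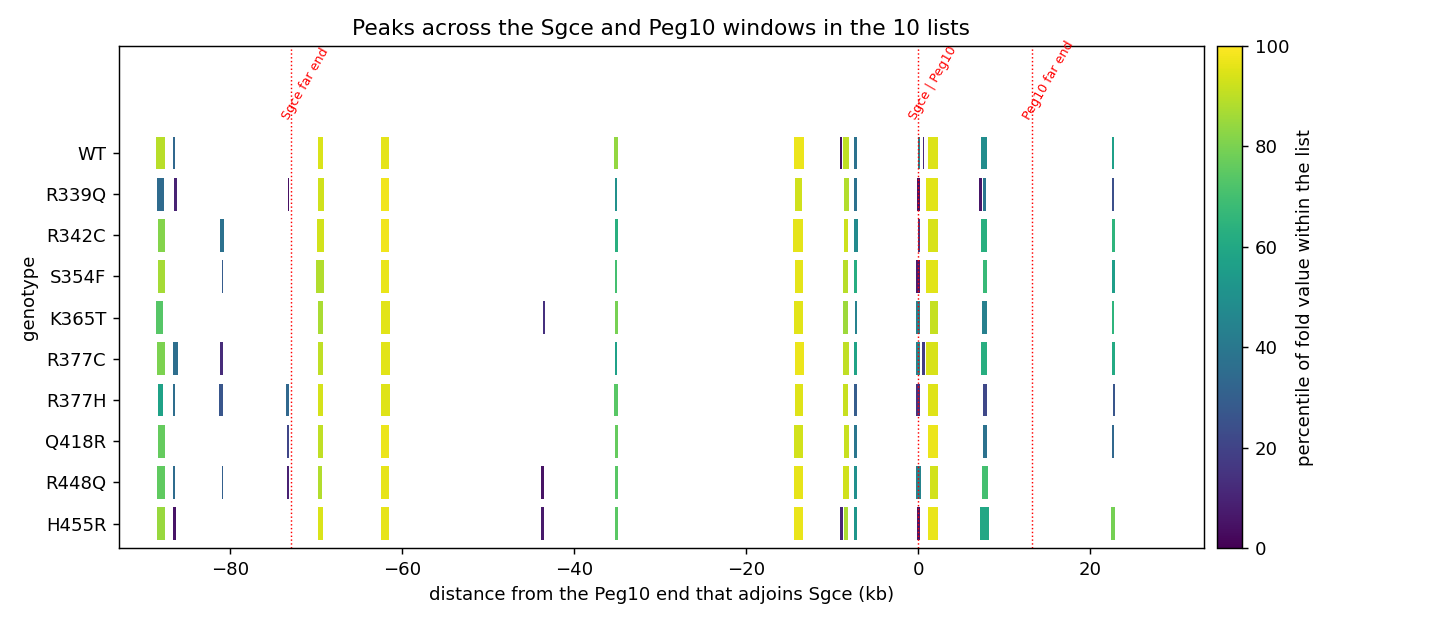
Peaks of the 10 lists (rows) across the Sgce and Peg10 windows, by distance in kb from the Peg10 end that adjoins Sgce (x axis), coloured by the percentile of the fold value within the list, with dotted lines at the annotated gene ends. The peak between the genes is absent in Q418R only, and the peak at the left edge is weakest in R339Q (4.04 against 11.2 in WT).

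Mest, on chromosome 6 at chr6:30733506-30748466, encodes a hydrolase-like protein expressed from the paternal copy during growth, with a control region at its inner promoter. Its strongest WT peak, at the inner start, had a fold of 4.91, the lowest such value of the 10 genes. That region (chr6:30737898-30738434) had 3.58 in R339Q, 4.05 in R342C, 6.50 in S354F, 5.57 in K365T, 5.01 in R377C, 6.03 in R377H, 5.58 in Q418R, 5.85 in R448Q and 6.05 in H455R. S354F was shifted upward, from 19.6 in WT to 41.6, and R339Q and R342C were the 2 lists below WT. At the outer start (chr6:30732529-30733521) R342C was instead the highest, with 5.04 against 3.63 in WT and 3.01 in R377H, the lowest.

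Both Mest start regions were present in every list, and the losses fell elsewhere in the gene and 11.9 kb upstream of it (chr6:30721262-30721641). WT had 8 peaks, R339Q and Q418R 3 each, R342C, S354F and R377C 4 each, R377H 5, R448Q and H455R 6 each and K365T 7. Over the mutants, 31 of 72 comparisons found no peak, against 27.5 expected at equal strength. R339Q, R342C and Q418R all lacked the regions 1139 bp (chr6:30739192-30739764) and 6842 bp (chr6:30744895-30745353) past the inner starts. R377C also lacked the first and S354F the second. These regions had folds of 4.23 and 3.59 in WT, at percentiles 42.7 and 28.5 of its list. In Q418R the share of peaks within 2.5 Mb of Mest was -0.35 (log2) from the median of the lists, in R339Q 0.05 and in R342C -0.04, and its part in the missing peaks was not tested.

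Nnat, a small proteolipid gene of the brain at chr2:157560078-157562525, lies within an intron of Blcap. Its promoter window had no peak in any list. The nearest region, chr2:157561105-157561757, lay 1027 bp past the start and inside the gene, and had a fold of 10.9 in WT, 8.23 in R339Q, 9.56 in R342C, 10.4 in S354F, 8.84 in K365T, 11.1 in R377C, 9.93 in R377H, 9.72 in Q418R, 9.45 in R448Q and 11.9 in H455R. It was the only Nnat region in all lists, and its ranks of 66.4 to 81.2 lay around the 76.2 of WT.

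The 5 upstream Nnat regions were weaker and often missing. Over all 6 WT peaks of the window, 28 of 54 comparisons found no peak, the highest share of the 10 genes (51.9%), against 19.5 expected at equal strength. K365T, S354F, R377H and R448Q lacked 4 of 6 WT peaks, H455R lacked 1. The region 19.4 kb upstream (chr2:157539902-157540710), among the stronger 50% of WT peaks, had 5.89 in WT and 4.48 (K365T) to 6.76 (S354F) in the 8 mutants that held it, and was missing from Q418R. The region 12.9 kb upstream (chr2:157546376-157547227) had 3.31 in WT and no peak in S354F, K365T, R377H or R448Q. In R448Q the share of peaks within 2.5 Mb of Nnat was -0.24 (log2) from the median of the lists. It was -0.11 in K365T, -0.05 in R377H and 0.02 in S354F, and its part in the missing peaks was not tested.

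Gnas, at chr2:174284320-174346744, encodes the stimulatory G protein subunit that couples receptors to cyclic AMP, with further products from upstream promoters and antisense transcription (Gnasas1) over its 5′ part. It was the most densely accessible of the 10 genes, with 27 WT peaks and 19 to 25 in the mutants. Its 26 regions included 13 in all lists. Losses were fewer than at equal strength over the genome, 53 of 243 against 76.1 expected.

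The first Gnas start had no peak in its promoter window, but 318 bp past it the region chr2:174284638-174285482, which Gnasas1 overlaps, had a fold of 6.61 in WT and 6.19 (R377H) to 7.62 (R377C) in the mutants. R339Q, at 7.14, was shifted upward among shared regions. At the pair of starts near position 174327749, chr2:174327064-174328106 was nearly level, from 6.03 in Q418R to 7.14 in R342C with 6.57 in WT and no shift. The last start at position 174330006, with 40 CpG, lay in a wide region of 1957 bp (chr2:174328947-174330903) of low fold: 3.08 in WT, the lowest of the 10 lists, and 3.29 in S354F to 4.55 in Q418R in the mutants. There the lists called 1 to 3 peaks each, so the width of the region is made up of several peaks in some lists.

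Several shared regions of Gnas differed in rank between lists. The region 3343 bp past the first start (chr2:174287663-174288249) had 5.08 in WT, 5.89 in R339Q, 7.46 in R342C, 5.49 in S354F, 4.47 in K365T, 6.03 in R377C, 6.40 in R377H, 6.17 in Q418R, 6.58 in R448Q and 5.43 in H455R. It was shifted upward in R339Q, R342C, R377H, Q418R and R448Q, more mutants than at any other shared region of the 10 genes. Its ranks spanned 34.6 points, and 41.4% of shared regions of similar WT rank spanned at least as much. The region with the highest WT fold of Gnas, chr2:174310929-174311979, had 13.2 in WT and 8.84 (R448Q) to 12.9 (R342C) in the mutants, and was shifted only in R448Q, from a rank of 86.2 to 63.2. Near the gene's end, chr2:174343959-174344489 had 6.32 in WT and was shifted downward in R342C (4.08), K365T (4.35) and R377H (4.06). At the upstream edge of the window, chr2:174263698-174264669 was shifted upward in K365T alone, from a rank of 7.52 in WT to 31.3.

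The narrow region chr2:174320302-174320576, 7173 bp before the pair of starts, was the strong WT peak missing from the most mutants. It had 5.17 in WT, 3.64 in R339Q, 5.41 in R377C and 4.61 in Q418R, and no peak in R342C, S354F, K365T, R377H, R448Q or H455R. R377C held it at the WT level while R377H did not. The reverse case, chr2:174294552-174294840, was absent from WT, R339Q, K365T and H455R and weak in the other 6, from 2.78 in R342C to 4.16 in R448Q. Beyond the gene, chr2:174357347-174358099 had 5.75 in WT and 4.24 to 6.91 in 8 mutants and was missing from R448Q.

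**Figure D5:**
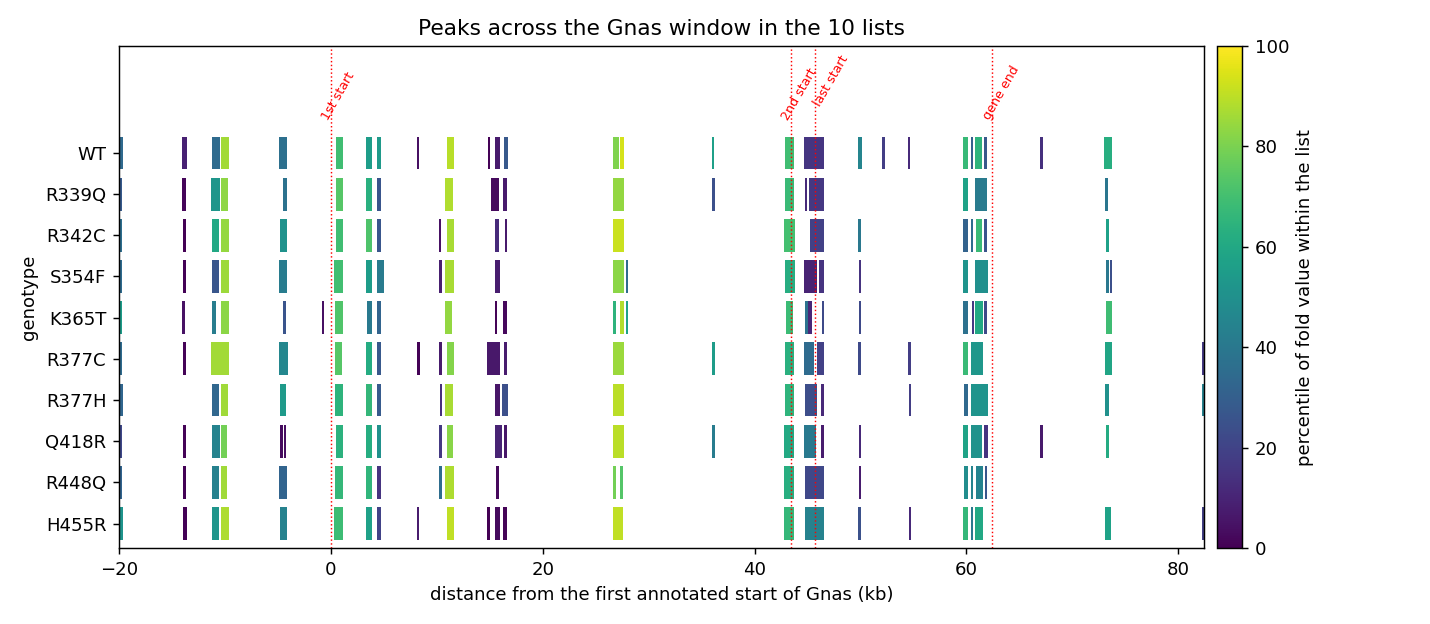
Peaks of the 10 lists (rows) across the Gnas window, by distance in kb from the first annotated start (x axis), coloured by the percentile of the fold value within the list, with dotted lines at 3 annotated starts and the gene end. The narrow peak 7173 bp to the left of the later starts is present in WT, R339Q, R377C and Q418R only, and the peaks at the later starts and 318 bp past the first are present in all 10 lists.

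Plagl1, at chr10:13090832-13131694, encodes a zinc finger factor that restrains cell growth and is expressed from the paternal copy, with its control region at the promoter it shares with the noncoding Hymai. The start region (chr10:13090329-13091366) had a fold of 15.6 in WT, 12.5 in R339Q, 15.0 in R342C, 16.9 in S354F, 13.6 in K365T, 16.1 in R377C, 15.1 in R377H, 10.5 in Q418R, 13.5 in R448Q and 16.3 in H455R. Q418R was the lowest, with a rank of 78.1 against 92.8 in WT. The same list had the lowest fold of the Ndn start peak and no peak between Peg10 and Sgce, but the highest fold, with H455R, inside Peg10.

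Inside Plagl1, chr10:13118644-13119084 had 6.72 in WT and was shifted downward in R339Q (4.14) and Q418R (4.25), while R377H (8.27) and H455R (7.91) had the highest values. The neighbouring chr10:13108852-13109351 went the other way in R339Q, with a rank of 39.9 against 17.0 in WT. The region 11.5 kb past the start (chr10:13102349-13102843), a strong WT peak of 5.91, was missing from R339Q alone and ran from 3.22 in R377H to 6.16 in S354F. The region chr10:13106740-13107111 was absent from WT, K365T and Q418R and weak in the other 7, with folds of 2.07 to 2.77. Plagl1 had 17 of 99 comparisons without a peak, against 23.1 expected. The share of peaks within 2.5 Mb was lowest in S354F (-0.15, log2), where the start peak had the highest fold.

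The starts of Ube3a, Plagl1, Ndn and Magel2, the inner and outer Mest starts and the later Gnas starts kept a peak in all genotypes. Of the stronger 50% of WT peaks in the windows, 5 were missing from at least 1 mutant, 4 of them from a single list. None of the 5 lay at a start. Their WT folds ran from 5.17 to 5.91, against a median of 4.69 over the WT list. R377C and R377H, which change the same residue, differed at the Sgce edge region and the Gnas region 7173 bp before the pair of starts. Of the same 73 WT peaks R377C lacked 11 and R377H 18, where 20.9% and 26.0% of all WT peaks were missing. Their exact 95% intervals, 7.77 to 25.4% and 15.3 to 36.1%, hold for each count alone and do not compare these lists.

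The other imprinted genes and the neighbours of the 10 genes, from lists chosen with the study's earlier results known, gave the same measures as a comparison without a test. Around 23 other imprinted genes 28.5% of comparisons found no peak and 93 of 286 regions (32.5%) were in all lists. For 14 neighbours in the same domains, among them Mkrn3, Peg12, Casd1 and Copg2, the values were 27.5% and 58 of 151 regions (38.4%). Snurf, Snhg14, Blcap and Copg2 overlap Snrpn, Nnat or Mest, and without the regions shared with the 10 genes the neighbours had 26.1% and 51 of 126 regions (40.5%). The 10 genes, with 23.3% and 44.0%, had a lower share missing and a higher share in all lists than both groups. This difference was not tested. Around the naive, fibroblast, neural and primitive endoderm markers the share missing was lower still, at 19.2%, 21.6%, 19.6% and 20.9%. There 47.5%, 46.3%, 47.9% and 42.0% of regions were in all lists. A peak within 1 kb of an annotated gene end was present in all lists for 8 of the 10 genes, 13 of the 23 and 10 of the 14. Of all protein-coding genes, 64.7% had such a peak in all lists. Snrpn, whose annotated ends lie away from its main start, had none, and Peg10 lacked it in Q418R. The Peg10 case depends on the 1 kb limit. The strong merged region inside Peg10, 1366 bp wide and 884 bp from the end, was present in Q418R with a fold of 15.8, but the Q418R peak covered only 1059 bp of it.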

How the data were processed

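The series holds Omni-ATAC libraries of 20 samples, 10 genotypes with 2 replicates each, grouped by the genotype in the labels. Per the submitters' processing notes, the authors used Trim Galore, Bowtie2, MACS2 and deepTools with the mouse build mm10. No version, duplicate handling, adapter shift or calling threshold is given in the sources used here. Each list the authors deposited covers both replicates of 1 genotype, with a position, a name and 1 value per peak. The lists have no header, and this value, as the authors deposited it, was taken to be a ratio, MACS2's fold enrichment, because its range and steps match one.

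From these lists, peaks overlapping each gene body or 20 kb on either side were taken, with gene bodies from the RefSeq table of GRCm38.p6, and merged where at least 1 bp overlapped. All 10 gene symbols matched. Missing shares have exact Clopper-Pearson 95% intervals and an expectation from all WT peaks in 20 bins of equal size by WT fold. Ranks are percentiles of the fold among regions common to all lists. Relative depth was taken as the background coverage, 1 over the step between the fold values of a list minus 1. It ran from 3.49 to 5.96 and limits which weak peaks could be called. The regions named are the strongest WT peak of each window, WT peaks of the stronger 50% missing from at least 1 mutant, regions absent from WT in at least 5 mutants, and common regions with a shift of 20 points. Peaks within 1 kb of an annotated gene end or start were also drawn on, but not all of them are named. The Mest and Nnat regions further from a start, the Ube3a regions inside the gene and the Sgce region chr6:4684836-4685836 were chosen after their values were seen. The genes, the lists of other genes and the tests were chosen with earlier results of these data known. Overlap, list size, window and rank alternatives were tried. The analysis used Python 3.11.15 with numpy 2.4.6, pandas 2.3.3 and scipy 1.17.1, and its overlap and rank steps were tested on simulated data. No signal track was used here.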

Additional observations from a re-analysis of the deposited data

How the results depend on the processing

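No paired analysis was possible because each genotype has 1 peak list made from both replicates, so no replicate could be blocked or left out. The median share of WT peaks found in a mutant, 74.0% (73.9% over all WT peaks), was 84.6% with every list limited to its 121032 strongest peaks (81.5% over all) and 97.2% when only the stronger 50% of WT peaks were looked for (94.2% over all). It lay between 72.6% and 79.6% with 50% overlap, other windows or, as an alternative chosen after seeing the data, without the 4 genes whose local peak share moved by over 0.2 (log2). Under the same alternatives the 47 gained peaks became 32 to 68 and the 37 regions in all lists 30 to 49, or 37 to 40 with each list left out in turn. The median rank of the strongest peak was 81.4 among common regions and 89.9 over the whole list. The 30 shifts were 31 over the whole list, 25 without the 4 genes and 99 at a threshold of 10 points (29.7%, against 40.0% of all comparisons). The order of the mutants changed. With lists of equal size the gained peaks were 9 in R339Q (3 with whole lists), 7 in K365T (4), 6 in Q418R (2), 2 in R377C (5) and 4 in H455R (9), and H455R went from the highest share found (87.7%) to 84.6%, the lowest value, which 4 other mutants also had. At 10 points H455R went from 0 shifts to 13. Without counts or lists per replicate, a difference between 2 genotypes cannot be set against the spread within a genotype, and a missing weak peak may not have been detectable at the depth of that list.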

Other observations

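Among 6 factors known to keep imprints, 4 (Zfp57, Zfp445, Trim28 and Uhrf1) had a peak within 1 kb of a gene end in all 10 lists, against 64.7% of all protein-coding genes. This measure looks only at the outer annotated ends of a gene. It does not show whether a start inside the gene kept its peak. Dnmt1, the maintenance methyltransferase, lacked such an end peak in R342C and R448Q. Dppa3, which protects methylation in the early embryo, had one in R377H only. Around these 6 genes 20.1% of comparisons of a WT peak with a mutant list found none (161 of 801), and 47 of 101 regions (46.5%) were in all lists.

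Outside the 10 genes, Peg3 and Usp29 had such a peak in every list but Q418R, as did Peg10. The annotated ends of Peg3 and Usp29 adjoin, and these genes, like Meg3 and Rian, were named after their values were seen. Meg3 and Rian had such a peak in H455R only. Asb4, a neighbour of Peg10, had it in 3 lists, WT, Q418R and H455R.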
